A study of Rattus norvegicus with 4 samples.

Results

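The nuclear-encoded subunits of oxidative phosphorylation were followed in rat gracilis, a strap-like thigh adductor, after 4 h of ischemia and 1, 3, 7 or 14 days of reperfusion. The members were taken by name. A probe was kept if the gene name in the scanner file, with the ending for predicted genes removed, began with Nduf followed by a, b, c, s or v, with Uqcr, with Cox and a digit from 4 to 8, or with Atp5, or was Cyc1 or 1 of the Sdh subunits a to d. This gave 83 of 41012 probes and 71 of 35658 gene names. By complex, 30 genes belonged to complex I, 4 to complex II, 6 to complex III, 14 to complex IV (cytochrome oxidase) and 13 to complex V (ATP synthase), 67 in all. The other 4 names, Ndufaf1, Cox7a2l, Atp5s and Cox4nb, share the prefix but are not core subunits, and Cox4nb is the older name of Emc8, a gene that lies beside Cox4i1.

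The animals were male Sprague-Dawley rats. Each day was 1 2-colour Agilent array on which RNA of the injured muscle (4 h of ischemia, then reperfusion; Cy5) was read against RNA of a sham-operated gracilis (no ischemia; Cy3). With 1 array a day, no dye swap and no second animal, a difference on a day has no replicate check and no test, and it cannot be separated from a dye effect of a probe. Values below are log2 ratios of injured over sham after loess normalization unless another scale is named. Genes whose brightest probe was not well above background in either channel were left out for that day, which removed Cox6b2 on day 1 and no member on the later days. In whole muscle, fewer fibres and less RNA per fibre cannot be told apart.

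Oxidative phosphorylation passes electrons from NADH (complex I) and succinate (complex II) through complex III and cytochrome c to cytochrome oxidase, and ATP synthase uses the proton gradient this builds across the inner mitochondrial membrane. Most subunits are encoded in the nucleus and a few in mitochondrial DNA. Some cytochrome oxidase subunits exist as a pair of genes: Cox6a2 and Cox8b are made in heart and skeletal muscle, whereas Cox6a1 and Cox8a are made in most tissues. The scanner files give Cox8b its older name Cox8h, which is kept here.

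The probes and promoters of the muscle isoforms are printed because the widest differences of the module lay in these genes. Probe positions are rn4, as the files give them, and each probe is written 5′ to 3′. The brightest Cox8h probe lies at chr1:201057360-201057419 on the minus strand, and the Cox6a2 probe at chr1:187464932-187464991 on the minus strand. Another 2 probes filed under Cox8h run on the plus strand, the first at chr1:201057399-201057458. No rn4 gene models were used here, so exons are not given. Capitals mark the 21 bases of the first of these that are the reverse complement of the brightest probe.
Cox6a2: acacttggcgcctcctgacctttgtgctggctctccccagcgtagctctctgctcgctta
Cox8h, brightest: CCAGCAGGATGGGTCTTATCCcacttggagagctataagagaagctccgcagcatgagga
Cox8h, opposite strand, first: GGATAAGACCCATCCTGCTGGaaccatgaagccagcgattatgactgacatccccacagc
Cox8h, opposite strand, second: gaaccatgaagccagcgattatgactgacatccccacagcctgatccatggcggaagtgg

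The promoters come from RefSeq (assembly GRCr8), which gave a window of 250 bases before to 50 after the start for 58 members. They are shown from 150 bases before to 10 after the start, on the gene's own strand. The Cox6a2 stretch is chr1:192219707-192219866, that of Cox8b chr1:205408264-205408423 and that of Cox8a chr1:213833614-213833773, all on the minus strand. Capitals mark the motifs found.
Cox6a2: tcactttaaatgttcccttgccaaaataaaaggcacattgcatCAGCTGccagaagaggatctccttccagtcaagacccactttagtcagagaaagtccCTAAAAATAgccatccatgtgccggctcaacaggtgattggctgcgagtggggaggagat
Cox8b: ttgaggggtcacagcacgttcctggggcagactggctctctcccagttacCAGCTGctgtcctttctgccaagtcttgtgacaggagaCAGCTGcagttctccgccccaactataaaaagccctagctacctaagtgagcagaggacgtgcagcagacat
Cox8a: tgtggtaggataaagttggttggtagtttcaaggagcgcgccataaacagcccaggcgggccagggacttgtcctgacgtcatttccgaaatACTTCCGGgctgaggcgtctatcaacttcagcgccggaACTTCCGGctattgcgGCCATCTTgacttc

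Each motif was searched as exact letters on both strands over the whole window, and none of those searched contains another. The Cox6a2 promoter held a MEF2 motif (CTAAAAATA) beginning 50 bases before the start, which was in 0.511% of 33469 promoters and in no other of the 58 member promoters. The E-box CAGCTG started 107 bases before the start of Cox6a2 and 100 and 62 bases before that of Cox8b. It was in 15.5% of the member promoters and in 15.1% of all, so it is common in both. The Cox8a promoter held the ETS motif CCGGAAGT, on the opposite strand, at 58 and 20 bases before the start, and the YY1 motif AAGATGGC, also on the opposite strand, at 4 bases before it. The ETS motif was in 6 of 58 member promoters (10.3%) against 3.81% of all, and the YY1 motif in 13 (22.4%) against 3.17%. The NRF-1 motif GCGCATGCG was in 5 member promoters, those of Atp5mc2, Atp5me, Atp5po, Ndufa11 and Uqcrc1 (8.62% against 1.52%). The ERR motif TCAAGGTCA was in 1, that of Sdhd (1.72% against 0.433%). These are matches of letters only.

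The members were lower in the injured muscle on days 1 and 3 and slightly higher on days 7 and 14. Their median log2 ratio was -0.84 on day 1, -0.71 on day 3, 0.26 on day 7 and 0.49 on day 14. On day 1, 24 of 70 measured members were at least 2-fold lower than sham, against 4.91% of 22947 genes measured on that array. On day 3 the count was 22 of 71, against 3.95% of 24466 genes. No member was 2-fold higher on either day, when 1.24% and 2.47% of all genes were. On day 7 none was 2-fold lower, where the background was 1.23%, and 1 was higher, where it was 3.13%. On day 14 none was 2-fold away in either direction, where the background was 1.57% lower and 3.14% higher.

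The signs of the medians on days 1 and 3 depend on how the array is scaled. With each array centred on its median in place of loess, the member medians were 0.46, 0.22, 1.09 and 1.30 on days 1, 3, 7 and 14, and those of all genes measured were 0.37, 0.29, 0.27 and 0.27 against 0.02, 0.03, 0.04 and 0.05 under loess. The ratio depended on brightness before loess, and the members are bright. The 1354 other genes whose mean brightness lay between 10.98 and 13.34 (log2), the members' quartiles, moved with them, with medians of 1.27, 0.98, 0.78 and 0.71 under median centring against -0.08, -0.07, -0.04 and -0.07 under loess. Relative to these genes of like brightness, the members stood at -0.77, -0.64, 0.30 and 0.56 under loess and at -0.81, -0.76, 0.31 and 0.59 under median centring. Over the 9 settings tried, this difference stayed between -0.81 and -0.66 on day 1, between -0.76 and -0.63 on day 3, between 0.27 and 0.37 on day 7 and between 0.51 and 0.60 on day 14. Values, counts and folds below are against sham on the loess scale. Against genes of like brightness, 20 members were at least 2-fold lower on day 1 and 20 on day 3 under loess. With sham as the reference, 204 of 1354 like-brightness genes also passed the 2-fold limit downward on day 1, beside 24 of 70 members. For day 3 these counts were 184 of 1353 and 22 of 71. The excess of low members was therefore smaller beside genes of like brightness than beside all genes. In the ratio deposited by the authors, the sign on day 7 was opposite for Ndufv3l (-0.66), Uqcrc2 (-0.33), Cox4i1 (-0.29), Cox5a (-0.14), Cox6a1 (-0.06) and Atp5g1 (0.10) among the genes named below, so their side of sham on that day is not settled.

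**Figure D1:**
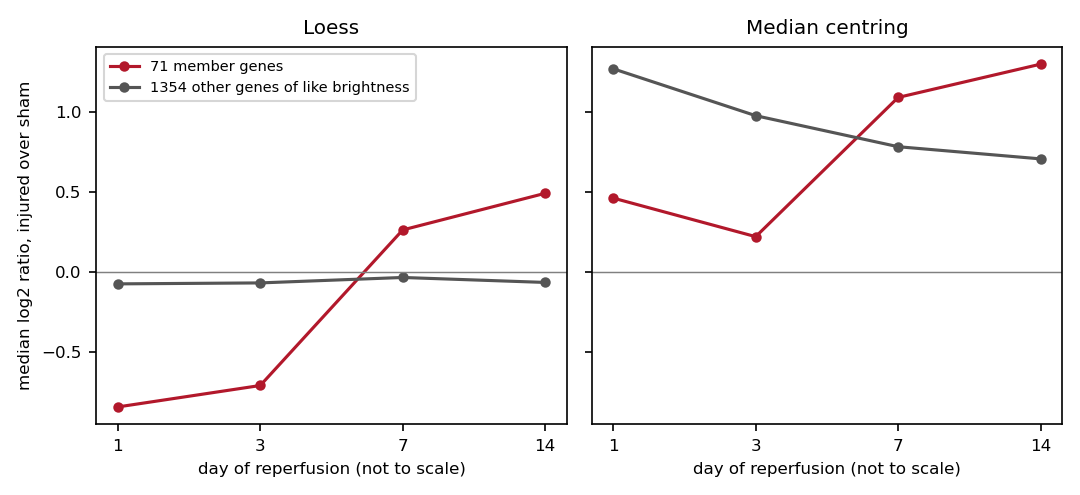
Median log2 ratio of injured over sham by day of reperfusion, for the 71 member genes (red) and 1354 other genes of like brightness (grey), under loess (left) and median centring (right). The members lie below the other genes on days 1 and 3 and above them on days 7 and 14 on both scales, while their position against 0 on days 1 and 3 differs between the scales.

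The order of the days was shared by most subunits. Of the 70 members measured on every array, 63 had both late ratios above both early ratios (90%, against 30.9% of 20530 genes measured on every array). Under median centring the order held for 61 of the 70 (87.1%, against 22% of all genes). Below sham on days 1 and 3 and above it on days 7 and 14, on the loess scale, were 50 members (71.4%, against 8.88% of all genes), and under median centring 8 (11.4%, against 4.99%). The 7 without the order were Cox6a1, Cox8a, Cox6b, Cox6c1, Ndufa7, Ndufaf1 and Cox4nb, chosen here after their values were seen. Between days 1 and 3 the direction depended on the scaling. Day 3 was the lower of the pair in 33 of 70 members under loess (9838 of 20530 genes) and in 56 of 70 under median centring (11422 of 20530 genes).

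Complex I, the NADH dehydrogenase, had medians of -0.91, -0.70, 0.31 and 0.52 on days 1, 3, 7 and 14. At least 2-fold lower were 12 of its 30 genes on day 1 and 9 on day 3, against 4.91% and 3.95% of all genes. Ndufv3l, named after a flavoprotein subunit of the NADH-oxidizing part, was the lowest on both days, with values of -1.55, -1.59, 0.62 and 0.67. Ndufs6, a small subunit only named after the iron-sulfur proteins of the complex, was at -1.48, -1.49, 0.37 and 0.26. Both were about equally low on the early arrays, and Ndufs6 was above sham on the late ones. Ndufv3l was above sham on day 14, while on day 7 the deposited ratio put it below.

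Ndufv2 and Ndufa9, another flavoprotein subunit and an accessory subunit, were low early and close to sham on day 7. Ndufv2 was at -1.21, -1.35, -0.10 and 0.50. Ndufa9 was at -1.20, -1.50, -0.21 and 0.28, the lowest of the complex on day 7. The genes highest on day 7 were Ndufa12 (-0.59, -0.22, 1.05 and 0.35) and Ndufb7 (-0.47, -0.32, 1.00 and 0.71), both accessory subunits. Ndufa12 was the 1 member past 2-fold on that day. Ndufs3, a core subunit, was the highest on day 14, at -1.07, -0.88, 0.69 and 0.89.

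Ndufa7 read 0.05, -0.03, 0.04 and 0.07, but its probe was dim throughout and its sham channel was not well above background on day 7, so these values do not show an absence of change. Ndufb6 was at -0.32, -0.29, 0.29 and 0.32. The remaining genes named by rank were Ndufs5b (-0.57, -0.18, 0.68 and 0.54), Ndufs4 (-0.37, -0.65, 0.05 and 0.85) and Ndufv1 (-0.97, -0.92, 0.35 and 0.16). The Ndufs4 probe was dim (6.21 to 7.90, log2 brightness) and its sham channel was not well above background on day 7. Its deposited ratios were -1.49 and -1.98 on days 1 and 3, against the -0.37 and -0.65 given here, so its rank in the complex depends on the processing.

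Complex II, succinate dehydrogenase, is the 1 complex with no subunit encoded in mitochondrial DNA. Its 4 genes stayed close together, and none was 2-fold from sham on any day. Sdha, the flavoprotein, was at -0.61, -0.49, 0.32 and 0.62. Sdhb, the iron-sulfur protein, was at -0.83, -0.83, 0.26 and 0.32. The membrane anchors were at -0.55, -0.51, 0.18 and 0.71 for Sdhc and at -0.86, -0.80, 0.18 and 0.65 for Sdhd. All 4 had the same order of early and late arrays.

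Complex III, the cytochrome bc1 complex, was lower on day 3 than on day 1 in 5 of 6 genes, with medians of -0.85, -1.06, 0.09 and 0.65. The core proteins differed at the end of the series. Uqcrc2 was at -1.10, -1.46, 0.03 and 0.75, whereas Uqcrc1 was at -0.88, -1.36, -0.21 and -0.15 and was the 1 gene of the complex below sham on both late arrays under loess. Uqcrfs1, the Rieske iron-sulfur protein, was at -0.91, -1.29, 0.01 and 0.74. Cyc1, cytochrome c1, was at -0.62, -0.82, 0.47 and 0.49. Uqcrh, the hinge protein, was the highest of the complex on day 7, at -0.82, -0.72, 0.80 and 0.73. Uqcrb was at -0.33, -0.64, 0.14 and 0.56, but its probe was dim and its day 3 ratio was -0.98 without the offset and -1.09 as deposited.

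Complex V, ATP synthase, had medians of -1.002, -0.85, 0.31 and 0.45. Of its 13 genes, 7 were at least 2-fold lower on day 1 and 5 on day 3, against 4.91% and 3.95% of all genes. The alpha and beta subunits were low early and among the 4 of 13 genes still below sham on day 7 under loess. Atp5a1 (alpha) was at -1.08, -1.46, -0.22 and 0.22. Atp5b (beta) was at -1.31, -1.34, -0.26 and 0.35, the lowest of the complex on day 7. Atp5i, a subunit of the membrane part, was the lowest on day 1, at -1.45, -0.60, 0.29 and 0.41, and its injured channel was saturated on days 7 and 14, so those ratios have only a lower bound.

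The 3 genes for subunit c encode the same mature protein with different leader peptides. Atp5g1 was at -0.97, -0.85, -0.07 and 0.45. Atp5g2 was at -0.79, -0.45, 0.31 and 0.56. Atp5g3 was at -0.75, -0.90, 0.78 and 0.89, the highest gene of the complex on days 7 and 14. All 3 were therefore lower early. On day 7 Atp5g1 was the 1 among them below sham under loess, but it was at 0.10 in the deposited ratio, so its side of sham is not settled.

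Of the other ATP synthase genes named by rank, Atp5o, of the stalk, was at -1.12, -0.81, 0.78 and 0.89. Atp5d (delta) was the least lowered, at -0.56, -0.40, 0.65 and 0.28. Atp5f1 was at -0.67, -1.19, 0.26 and 0.54.

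**Figure D2:**
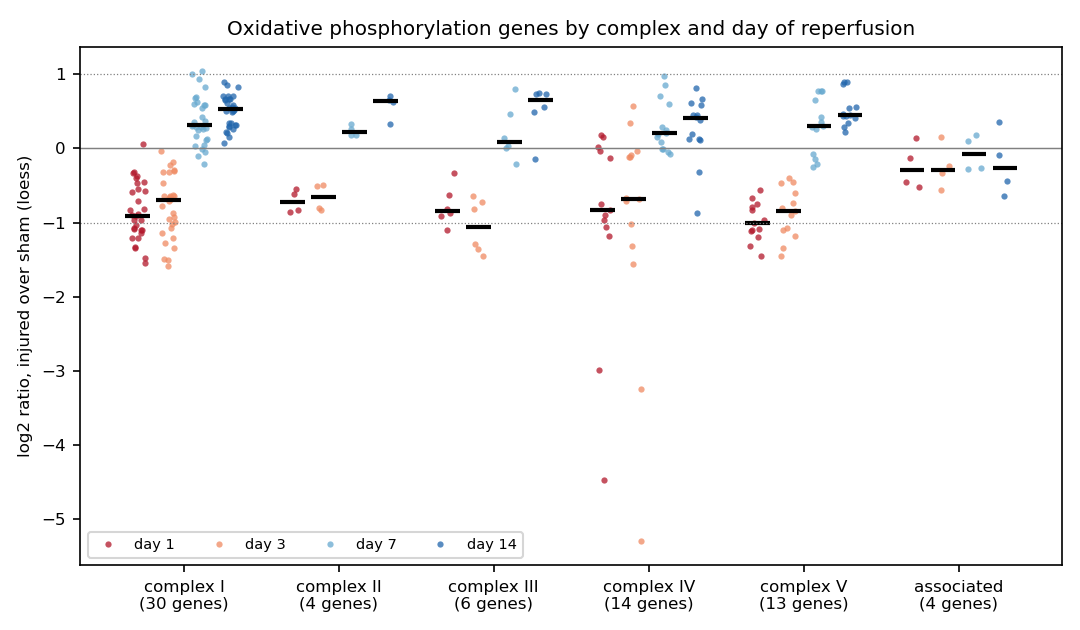
Log2 ratio of injured over sham after loess for each member gene (points) by complex and day of reperfusion, with the median of each group (black bars); dotted lines mark 2-fold. The points of days 1 and 3 lie mostly below those of days 7 and 14 in complexes I to V, and complex IV holds 2 genes far below the others on days 1 and 3. Under median centring the medians of complexes I, II and V lie above 0 on days 1 and 3.

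Complex IV was the most uneven. Its medians were -0.83, -0.68, 0.20 and 0.41, close to those of the other complexes, but on day 3 its genes ran from -5.30 to 0.56. The standard deviation over its genes was 1.34 on day 1 and 1.56 on day 3, against 0.39 and 0.42 in complex I. The low end was the pair of muscle isoforms on both days. The high end was the ubiquitous partners on day 3, whereas on day 1 it was Cox6b (0.18), a probe near background.

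Cox8h, the muscle form of subunit 8, was at -4.46, -5.30, 0.85 and 0.43 on days 1, 3, 7 and 14. That is 22.1-fold lower on day 1 and 39.3-fold lower on day 3, the lowest member on both days. Its brightness on the injured channel was 9.43, 8.48, 14.20 and 13.82 (log2), against 13.89, 13.77, 13.35 and 13.40 on the sham channel, and both channels were well above background on every array. The sham level moved by less than the injured level, so the ratio followed the injured channel.

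Cox8a, the ubiquitous form, was at -0.03, 0.34, 0.71 and 0.12. Cox6a2, the muscle form of subunit 6a, was at -2.98, -3.24, 0.28 and 0.45, or 7.9-fold lower on day 1 and 9.44-fold lower on day 3. Its injured channel read 9.74, 9.73, 13.30 and 13.13 and its sham channel 12.73, 12.96, 13.02 and 12.68 (log2 brightness). Cox6a1, the ubiquitous form, was at 0.15, 0.56, 0.25 and -0.33. Neither ubiquitous form was 2-fold lower than sham on any array. Under loess neither was 2-fold higher, whereas Cox8a on day 7 was at 1.04 in the deposited ratio, and both passed 2-fold higher under median centring on days 1, 3 and 7.

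**Figure D3:**
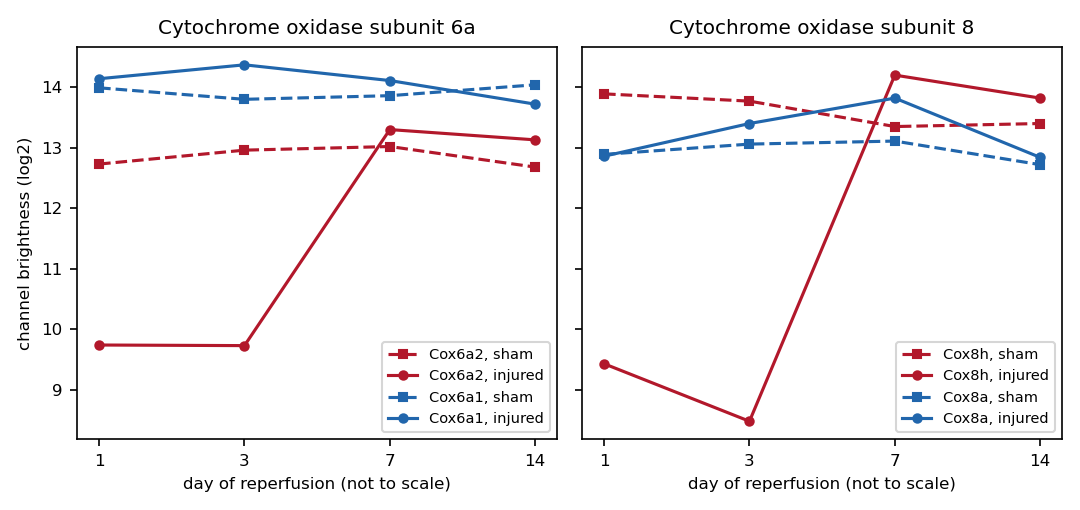
Log2 brightness of the injured (solid) and sham (dashed) channels on the arrays of days 1, 3, 7 and 14, for the muscle (red) and ubiquitous (blue) isoforms of cytochrome oxidase subunits 6a (left) and 8 (right). The injured levels of Cox6a2 and Cox8h lie far below sham on days 1 and 3 and above it on days 7 and 14; levels of different probes are not comparable with each other.

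The difference between a muscle form and its ubiquitous partner is taken within 1 array and so is nearly free of its centring. For subunit 6a it was -3.13 on day 1, -3.80 on day 3, 0.03 on day 7 and 0.77 on day 14. For subunit 8 it was -4.43, -5.64, 0.14 and 0.30. The mean of both pairs was -3.78, -4.72, 0.09 and 0.54, and under median centring it was -3.97, -4.88, 0.07 and 0.54. With the probes of a gene averaged, which adds the opposite-strand probes of Cox8h, it was -2.60 on day 1 and -3.27 on day 3, a smaller gap in the same direction. For subunit 7a no pair could be formed, because Cox7a1 was not among the members. Its other form, Cox7a2, was at -0.83, -0.69, 0.97 and 0.66, and so was low early, unlike Cox6a1 and Cox8a.

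The other isoforms of complex IV behaved differently from these pairs. Cox4i1, the common form of subunit 4, was at -0.75, -1.02, 0.09 and 0.45. Cox4i2, known as the lung form, was at -0.14, -0.09, -0.07 and 0.39, but in the deposited ratio it was at -1.45 on day 7, the lowest member under that setting, so its day 7 level is not settled. Cox6b2, the testis form of subunit 6b, was not well above background on the sham channel of any array. The same held for Cox6b, whose probe the file describes as similar to a uroplakin, and for Cox6c1, so the values of these 3 genes describe signal near background.

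Cox5a and Cox7b, subunits with no partner here, were named by rank. Cox7b was at -1.06, -0.71, 0.20 and 0.81. Cox5a was at -0.97, -1.56, 0.21 and -0.87, and on day 14 it was the lowest member of all. On that array every other subunit of complex IV but Cox6a1 was above sham, leaving aside Cox6b, Cox6b2 and Cox6c1, whose signal was near background.

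Genes of the pathway outside the name rule were taken from lists. The 7 matched names of subunits encoded in mitochondrial DNA had medians of -0.14, -0.35, -0.01 and 0.16 (1.14, 0.86, 1.01 and 1.09 under median centring). On days 1 and 3 these lie nearer to 0 than the member medians under loess and farther from it under median centring. Under loess 1 of 7 was 2-fold lower on day 3 (3.95% of all genes). That gene was ND5, a complex I subunit, at -0.73, -1.35, -0.58 and -0.60. COX1 and COX2, whose brightest probes were saturated on the injured channel on some or all of the arrays, were at -0.83 and -0.80 on day 1. The unsaturated COX2 probes ran from 0.12 to 0.38 on that day, so the probes of this gene disagree. CYTB was at 0.13, -0.51, 0.13 and 0.65, and COX3 at 0.00, -0.28, 0.45 and 0.30.

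The 14 matched assembly factors (14, 12, 11 and 13 measured) had medians of -0.36, -0.43, -0.08 and 0.03 (0.37, 0.26, 0.64 and 0.65 under median centring), with 1 gene 2-fold lower on day 1 (4.91% of all genes). It was MGC94704, the file's name for Ecsit, at -1.60, -1.21, -0.10 and 0.26. Surf1, needed to build cytochrome oxidase, was at -0.14, -0.10, 0.78 and 1.06. Acad9, needed to build complex I, was at -0.55, -0.46, -1.20 and -0.26 by its brightest probe, and was the list's lowest gene on day 7. Its other probe was at -0.32 on day 7. The sham level of the brightest probe was 11.62 (log2) on that array, against 10.34, 10.01 and 10.08 on days 1, 3 and 14. Others named by rank were RGD1309216, the file's name for Sdhaf2 (-0.60 on day 3), Nubpl (0.28 on day 14) and Hig1, now Higd1a (-0.62 on day 1).

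Carriers and exchange proteins, with 27 matched genes, had medians of -0.72, -0.49, 0.08 and 0.24 (0.39, 0.31, 0.85 and 0.98 under median centring). At least 2-fold lower were 9 of 26 measured genes on day 1 and 6 of 26 on day 3, against 4.91% and 3.95% of all genes. Ckmt2, the mitochondrial creatine kinase of muscle, was at -4.93, -5.64, -0.98 and 0.40. Slc25a4, the adenine nucleotide translocase of heart and muscle, was at -2.52, -2.13, 0.16 and 0.64. Ucp3, an uncoupling protein of muscle, was at -1.95, -2.06, 0.44 and 1.02. Cycs, cytochrome c, was at -1.31, -1.59, -0.01 and -0.07. Coq10a, a coenzyme Q binding protein, was at -1.17, -0.84, 0.18 and 1.17. Vdac1, a channel of the outer membrane, was at -1.25, -0.44, 0.95 and -0.48 by its brightest probe. Its other 2 probes were at -1.11 and -1.02 on day 7 and at 0.45 and 0.26 on day 14, so the probes of this gene had opposite signs on both late days. Slc25a5, another translocase, was at 0.66, 0.26, -0.42 and -0.79, the opposite order to Slc25a4.

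The 23 matched regulators (19, 21, 22 and 21 measured) had medians of -0.03, -0.28, -0.14 and -0.12 (0.53, 0.21, 0.31 and 0.28 under median centring). Tfam, which packages and transcribes mitochondrial DNA, was at -0.97, -0.94, -0.34 and -0.03. Esrra, a nuclear receptor acting on these genes, was at -0.27, -0.33, -0.13 and 0.01. Sirt3, a mitochondrial deacetylase, was at -1.47, -1.30, -0.60 and -0.08. Tfb2m, a mitochondrial transcription factor, was at -0.73, -0.95, -0.64 and -0.34. Polg, the mitochondrial DNA polymerase, was at 0.12, -0.02, -0.46 and -0.57, and Hif1a, the oxygen-regulated transcription factor, at 0.60, -0.50, 0.05 and -0.53. Ppargc1a, the coactivator known for driving mitochondrial biogenesis, was above background only on the injured channel of day 7, so its ratio there has only a bound and no direction is drawn on other days.

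Markers of muscle fibres and of other cells differed from sham on the same arrays. The 13 fast fibre genes, all above background in both channels on every array, had medians of -3.15, -4.24, -0.28 and 1.1 (-1.59, -3.09, 0.75 and 2.02 under median centring). The 12 slow fibre genes had medians of -4.05, -4.28, -2.31 and -1.74 (-2.63, -3.09, -1.42 and -0.91). Their median thus stayed low on the arrays on which the subunit medians were above sham. At least 2-fold lower were 8 of 12 on day 7 and 8 on day 14, against 1.23% and 1.57% of all genes. Casq2 was above sham on both days (0.84 and 0.24) and Mb on day 14 (0.29). On day 1 Tpm3 was at 0.82 by its brightest probe and -4.97 by another. Atp2a2 was at -0.065 and -3.85 in the same way. The subunit medians were nearer to sham than those of both lists on days 1 and 3. The medians of the 12 fibroblast genes (11 measured on day 1) were -0.89, 1.23, 1.93 and 1.86, those of the 12 macrophage genes 0.42, 0.10, 1.23 and -0.07 and those of the neutrophil list (10, 10, 9 and 10 of 11 genes measured) 0.85, -0.17, -0.22 and -0.37, where median centring turns the sign for fibroblasts on day 1 (0.02), macrophages on day 14 (0.76) and neutrophils on day 3 (0.13). The macrophage list was split on day 14, from -2.50 (Cd163) to 2.91 (C1qa). On that day 4 of its 12 genes were at least 2-fold higher and 3 lower, against 3.14% and 1.57% of all genes. Endothelial genes were at 0.12, 0.13, 0.31 and 0.14 and fat cell genes (8 of 9 measured) at 0.17, 0.70, 0.41 and 0.78. In sham, 12 of 12 macrophage genes were above background on each array, whereas Mpo, Mmp8 and Ltf of the neutrophil list, Thy1 of the fibroblast list, Pecam, Tek and Flt1 of the endothelial list and Lep, Plin and LOC500292 of the fat cell list were on none. The part of cell makeup in the members' ratios was not tested.

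Change over time was tested with limma over all genes measured on every array, with the 4 days as the only replication. No gene passed for a linear trend over log2 of the day at an adjusted p of 0.05, members included (smallest member value 0.1163; at an unadjusted p under 0.05, 53 members had a positive slope and 1 a negative one, against 11.6% and 7.77% of 20530 genes). The mean over the 4 days differed from 0 in no member by the same tool. Of all genes, 0.0244% were called higher and 0.156% lower. At an unadjusted p under 0.05, 3 members were lower and 0 higher, against 10% and 11.7% of all genes. Values of opposite sign enter this mean in many members, and why none passed was not tested.

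The contrast of days 7 and 14 with days 1 and 3 called 20 of 70 members, all rising (28.6%, against 1.7% rising and 0.229% falling among 20530 genes). The contrast takes days that differ as replicates, and it was run with the course of these genes already known. Called were 11 genes of complex I, 1 of complex II, 2 of complex III, 4 of complex IV and 2 of complex V. Cox8h rose by 5.52 ± 0.34 (SE; limma adjusted p = 0.01907) and Cox6a2 by 3.48 ± 0.16 (limma adjusted p = 0.01425). Ndufv3l rose by 2.21 ± 0.12 and Ndufs6 by 1.80 ± 0.13. Cox8a (0.26) and Cox6a1 (-0.40) did not pass. Without day 7 or day 14 no member was called; without day 1, 2 were, and without day 3, 8. Day 14 was scanned in another session than the other arrays, and the day and the session cannot be told apart.

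**Figure D4:**
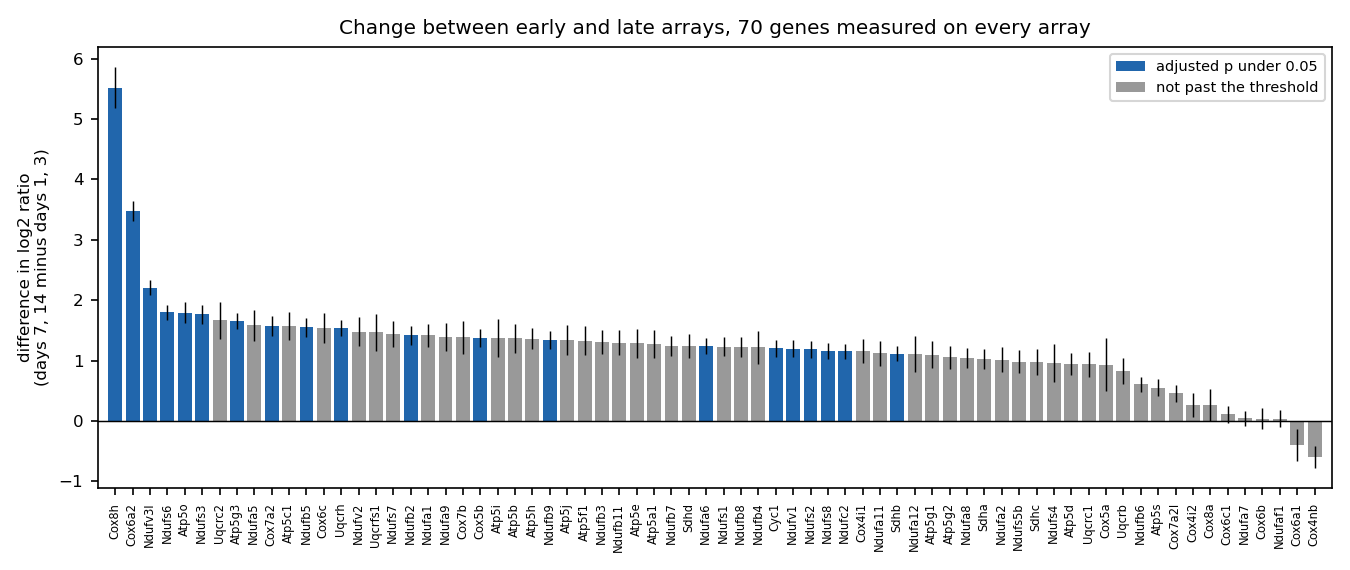
Difference in log2 ratio between the arrays of days 7 and 14 and those of days 1 and 3 (bars) with the limma standard error, for the 70 members measured on every array; blue bars passed an adjusted p of 0.05. Cox8h and Cox6a2 have the longest bars, and Cox6a1 and Cox4nb are the 2 below 0.

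Probes on the opposite strand to the brightest probe of their gene were found in 4 members, 5 probes in all: the 2 of Cox8h printed above and 1 each of Ndufc2, Cox5a and Ndufb3. None was the brightest probe of its gene, and none enters the values above except where probes are averaged. The first Cox8h probe of this kind was at -1.13, -1.13, 0.65 and -0.10 and the second at -0.73, -0.73, 0.65 and 0.16. Their sham brightness was 7.34 and 7.50 (log2) on day 1, against 13.89 for the brightest probe. Both had the order of days seen at the brightest probe, over a smaller range. They share most of their bases, so they are not independent readings. In the deposited ratio the first was at -2.77 and -2.52 on days 1 and 3 and the second at -1.30 and -1.31. The size of their range therefore depends on the processing.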

How the data were processed

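RNA was measured on 4 Agilent 2-colour arrays, 1 for each day. Per the file headers, the deposited intensity gives each spot's mean pixel brightness beside its local background median, without normalization. The deposited log10 ratio is that of red over green, background-subtracted and dye-normalized by the scanner software, per the file headers. The deposited value table holds log2 ratios and differed from that ratio times log2(10) by at most 0.005 over 40972 probes, with r = 1 and a median of 0. The headers name Feature Extraction 10.5.1.1, the submitters' processing notes version 9.5.3.

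Ratios were computed with R 4.3.3 and limma 3.58.1: normexp with an offset of 50, loess within arrays (control and outlier spots without weight), spots of a probe averaged, and the brightest probe for a gene. Channel levels are quantile-normalized brightness after loess. Injured muscle was Cy5 per the labels. Of 41012 probes, 47.3%, 41.1%, 34.7% and 46.4% were well above background in sham on days 1, 3, 7 and 14, and 64.4%, 68.7%, 65.9% and 66.6% in the injured channel. The spot SD within an array was 0.0556, 0.0554, 0.0723 and 0.0353 (log2), over 40 probes with 10 spots each. The number of arrays limits the precision. Tests were limma with Benjamini-Hochberg adjustment at 0.05 over all genes measured on every array. On simulated data with 200 of 20530 genes changed, the trend recovered 56.5% of changes of 3 (log2, first to last day), the mean 82.5% of changes of 1.5, and the late against early contrast 74% of changes of 3 and 0% of changes of 1.5.

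Members and lists were chosen with earlier results of these data known. Genes named in the text are isoform-pair members, the 2 highest and 2 lowest genes of each complex on each day, and, of other lists, Cycs, Slc25a4, Ppargc1a, Tfam, Esrra and the 2 genes farthest from sham on each day; Slc25a5 and the unsaturated COX2 probes were added after their values were seen. RefSeq (GRCr8) named 45 members. Alternatives were median centring, the deposited ratio, loess without member probes, no offset, the mean of 4 sham channels, stricter background and saturation filters, all genes, averaged probes and leaving out an array.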

Additional observations from a re-analysis of the deposited data

Results flagged for a closer look

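Among the members, the widest changes from days 1 and 3 to days 7 and 14 were in Cox8h (5.52, log2) and Cox6a2 (3.48). Both passed the limma contrast of late with early days. The contrast takes days that differ as replicates, with 1 array a day, and was run with the course of these genes already known. It is therefore no independent check of these changes. The signal of the opposite-strand probes of Cox8h lies outside the main measurement. On day 7 it was above that of the sham channel in both probes, which overlap in sequence (0.646 and 0.65 on the log2 scale).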

How the results depend on the processing

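No paired analysis was possible because each day holds 1 array. Under median centring the member medians became 0.461, 0.22, 1.09 and 1.298 on days 1, 3, 7 and 14. Those of the deposited ratio moved to -0.77 on day 3 and 0.537 on day 14, and those against the mean of 4 sham channels to -0.681, -0.654 and 0.318 on days 1, 3 and 14. Medians moved by less than the spot SD under the other settings. The isoform difference on days 1 and 3 was -3.973 and -4.879 under median centring, -3.844 and -4.883 with the deposited ratio, -3.899 and -4.898 without an offset, -3.708 and -4.573 against 4 sham channels and -2.605 and -3.265 with averaged probes, where the opposite-strand probes enter. On day 7 it was 0.437 with the deposited ratio and -0.004 against 4 sham channels, and on day 14 it was 0.406 against 4 sham channels and 0.407 with averaged probes.

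The trend called 0 to 9 members when 1 array was left out (9 without day 3) and 20 as the contrast of late with early days; the mean called 35 under median centring, and 0 when 1 array was left out. The contrast, whose alternatives were chosen after seeing the data, called 5 members under median centring, 2 with the deposited ratio, 10 without an offset and 3 against 4 sham channels, and 0 to 8 when 1 array was left out. The cause was not tested. Under median centring 8 of 70 members were below 0 on day 1, against 65 under loess. On day 3, 26 of 71 were, against 68. Sign changes are listed here only for values at least 2-fold from sham under loess. Among these, the complex V median on day 1 turned to 0.443. So did, on day 1, Atp5a1 (0.189), Atp5i (0.206), Atp5o (0.411), Cox7b (0.293), Ndufa9 (0.118), Ndufs3 (0.219), Ndufv2 (0.289) and Uqcrc2 (0.281), and on day 3 Atp5f1 (0.049). Of the genes outside the members that the text names, at the same 2-fold limit, Cycs on day 1 turned from -1.305 to 0.136. Smaller ratios of such genes turned as well, among them Tfam on day 1 (-0.967 to 0.278) and Slc25a5 on day 7 (-0.415 to 0.483).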
